A study of Drosophila melanogaster with 17 samples.

Results

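The genes that encode the vacuolar ATPase (V-ATPase) were followed across 5 groups of cells sorted from the adult Drosophila melanogaster midgut. Members were the rows of the expression table whose FlyBase symbol starts with Vha and a digit, or with VhaAC, VhaM, VhaPPA or VhaSFD. This gave 30 genes of 17490 features. Of these, 29 were named by their identifier in the Ensembl annotation of BDGP6, and Vha44 (subunit C) was named from a gene table of the paper read beside these data, a midgut study whose link to these libraries was not settled. Vha13, Vha26 and VhaAC39-1, which encode subunits G, E and d, were not analysed here. The groups were wild type enteroendocrine cells (EE, n = 3), wild type cells labelled EC (n = 3), intestinal progenitor cells labelled as overexpressing Sox100B (Sox100B-OE, n = 3), progenitor cells carrying Sox100B-RNAi (n = 3) and wild type progenitor cells (n = 5). All were GFP-labelled cells of adults at day 3, and the RNA was amplified before sequencing. The labels give neither the driver that marked each cell type nor whether replicates came from separate flies, so p-values measure the spread between these libraries, which may be technical. The libraries labelled EC are called enterocytes in one label field and enteroblasts in another.

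The V-ATPase is a rotary proton pump. Its cytosolic V1 sector hydrolyses ATP and turns a rotor that is joined to a ring of proteolipid subunits in the membrane-embedded V0 sector, and protons cross the membrane between this ring and the large a subunit. The pump acidifies lysosomes, endosomes and secretory vesicles, where the proton gradient also drives the loading of transmitters, and in insect epithelia it can sit in the plasma membrane and energise ion transport. In the fly midgut it is best known from the acid-secreting copper cells of the middle region. Several fly subunits are encoded by more than 1 gene, and such paralogs can differ in the tissue in which they are used.

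Values are RPKM, reads per kilobase of gene scaled to library size, which puts genes of different length on a common scale. The effect of RNA amplification on comparisons between genes was not tested. Implied totals were 31.1 to 42.5 M reads in EE, 26.0 to 59.5 M in EC, 17.4 to 22.9 M in Sox100B-OE, 23.9 to 29.4 M in Sox100B-RNAi and 24.1 to 27.0 M in progenitors. Reads assigned to genes made up 94.5 to 95.1% of the total in the 6 Sox100B libraries and 62.4 to 77.2% in the 11 wild type libraries. Mitochondrial features took 17.1 to 31.8% of the assigned reads in the Sox100B libraries and had 0 RPKM throughout the wild type libraries. The Sox100B libraries thus form a processing batch without an untreated library, and batch and treatment cannot be told apart against progenitors. Sox100B itself had 105, 85.5 and 144 RPKM in the libraries labelled Sox100B-OE and 32.1, 34.4 and 20.3 RPKM in Sox100B-RNAi, against 77.3, 69.7, 97.9, 174 and 183 RPKM in progenitors. The libraries labelled Sox100B-OE therefore lay within the range of the progenitors and above all Sox100B-RNAi libraries. Groups were compared with limma on log2(RPKM + 1), and a member counts as called where its adjusted p was below 0.01 and its log2 fold change lay beyond 0.5 in either direction. Errors of log2 fold changes are standard errors (SE).

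The members fell into 15 genes with a mean above 10 RPKM over the 17 libraries, referred to as broad, and 15 below it. The lowest broad mean was 14.2 RPKM (Vha68-1) and the highest mean below the limit was 3.88 RPKM (VhaAC45RP). Limits of 3.5 and 30 RPKM would give 16 and 10 broad genes. These means include the EE libraries, and Vha68-1 and VhaM9.7-a count as broad largely through EE. Vha68-1 averaged 55.2 RPKM in EE and at most 8.34 RPKM in any other group. VhaM9.7-a averaged 118 RPKM in EE and at most 11.3 RPKM in any other group. The broad genes supplied 7 V1 subunit genes, 7 V0 genes and the accessory subunit gene VhaAC45. The proteolipid ring gene Vha16-1 had the highest mean, 422 RPKM, followed by VhaM9.7-b (353 RPKM), a small membrane subunit e. Next came Vha36-1 (323 RPKM) and Vha14-1 (249 RPKM), the D and F subunits of the rotor stalk, then VhaPPA1-1 (229 RPKM), a larger proteolipid of the same ring, and VhaSFD (168 RPKM), the H subunit that regulates the pump. The catalytic pair was lower, with 129 RPKM for Vha55 (subunit B) and 115 RPKM for Vha68-2 (subunit A). VhaAC45 averaged 109.6 RPKM and Vha44, a subunit that links the sectors, averaged 79.6 RPKM. All 6 of the highest genes were at 82.6 RPKM or more in each of the 17 libraries.

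Members of 1 subunit differed widely in level. At the A subunit, Vha68-2 (2L, 12974322 to 12978607, plus strand) is followed by Vha68-3 (2L, 12978786 to 12981293, plus strand) and, on the other strand, by Vha68-1 (2L, 13000770 to 13004107). Vha68-3 lay at 0.111 to 0.554 RPKM in every library, although its neighbour Vha68-2 lay at 61.5 to 176 RPKM. The a subunit genes Vha100-4 (3R, 18386841 to 18389805, minus strand) and Vha100-2 (3R, 18390323 to 18399169, minus strand) are neighbours as well, as are the proteolipid genes VhaPPA1-2 (3R, 14899606 to 14900277, minus strand) and VhaPPA1-1 (3R, 14902330 to 14904061, minus strand). In both of these pairs the second gene had the higher mean level over all libraries. Of the 30 members, 14 reached 1 RPKM in every library and 8 stayed below 1 RPKM in every library: Vha68-3, VhaAC39-2, Vha16-5, Vha36-2, Vha16-2, Vha100-3, Vha16-3 and VhaM9.7-d. Whether reads were shared between paralogs of like sequence was not checked.

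**Figure D1:**
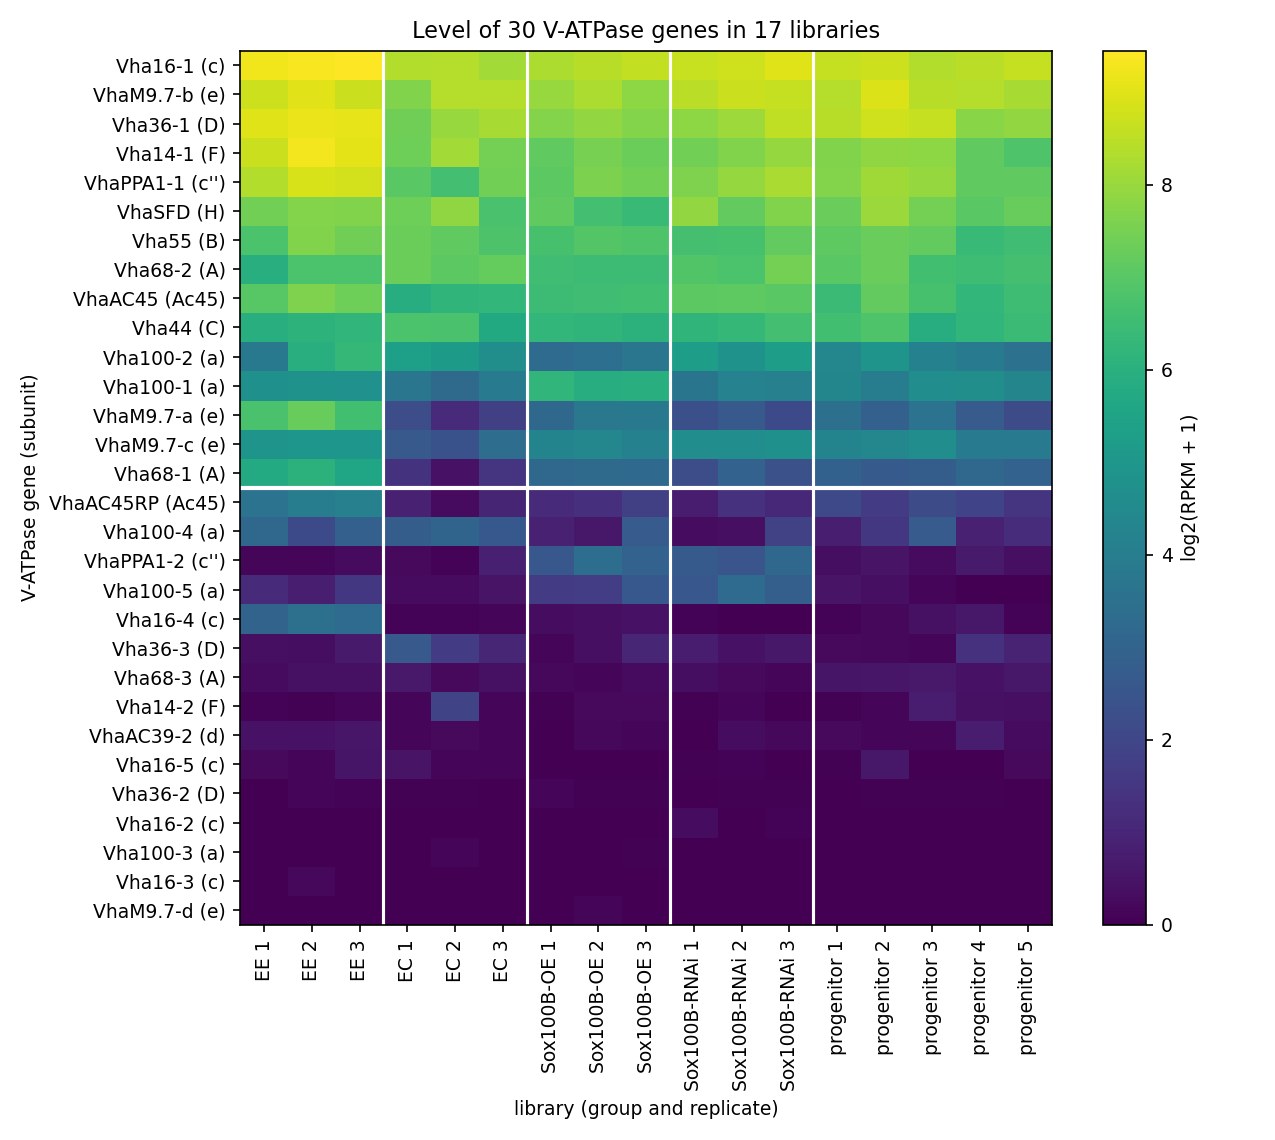
Level of each of the 30 V-ATPase genes (rows, subunit in parentheses, ordered by mean) in each of the 17 libraries (columns, grouped as EE, EC, Sox100B-OE, Sox100B-RNAi and progenitor), as log2(RPKM + 1) by colour. The horizontal line separates the 15 genes with a mean above 10 RPKM from the 15 below it. VhaM9.7-a, Vha68-1, VhaAC45RP and Vha16-4 are bright in the 3 EE libraries, and VhaPPA1-2 and Vha100-5 in the 6 Sox100B libraries.

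As deposited, enteroendocrine cells had the highest total level of V-ATPase RNA. The summed RPKM of the 15 broad genes was 3036 to 3944 in EE, against 1701 to 2765 in progenitors and 1706 to 2046 in EC, with no overlap of EE and either group. Scaled to the reads of nuclear genes, the sum was 4193 to 5125 in EE, against 2627 to 4430.4 in progenitors and 2607 to 2849.7 in EC, and EE replicate 1 then lay below progenitor replicate 2. Of the 30 members, 18 passed the filter on low values against progenitors, 7 were higher in EE and 0 were lower (limma; 0 were lower at an unadjusted p under 0.05). One of the 7, Vha16-4, passed the filter through the EE libraries alone and could be tested only because it was high there, which leaves 6 of 17. Over all features 34.6% were called in this comparison, 20.1% as higher and 14.5% as lower. Of the 15 broad genes, which were all tested in every comparison, 5 were higher. Among the 5 were Vha68-1 and VhaM9.7-a, broad largely through EE, which enter every count, sum and median of broad genes given here. All EE libraries were above all progenitor libraries for 8 of the 15 broad genes and below them for 0, where 26% of all features had the higher and 24.4% the lower order. Without EE replicate 2 or EE replicate 3, 4 members were called higher. The median log2 fold change of the broad genes was 0.72, against -0.05 over all features. Scaled to nuclear reads these medians were 0.50 and -0.25, and with quantile normalization 0.37 and -0.22. Against EC, 11 of the 19 members tested were higher and 0 were lower (limma; 2 were lower at an unadjusted p under 0.05), where 32.7% of all features were called, 26.5% as higher and 6.22% as lower. Of these 19, Vha16-4 and VhaAC45RP passed the filter through the EE libraries alone and Vha36-3 through the EC libraries alone, and of the other 16 members 9 were higher. All EE libraries were above all EC libraries for 10 of the 15 broad genes and below them for 1, where 44.7% of all features had the higher and 15.2% the lower order. The median log2 fold change was 1.17 for the broad genes and 0.45 over all features. With median-of-ratios scaling, which brought the median over all features to 0.06, 6 members were higher, and with quantile normalization 6 were higher and 1 lower. The count against EC was 4 without EE replicate 1, 3 without EE replicate 2, 3 without EE replicate 3 and 6 without EC replicate 1. Both comparisons use the same EE libraries. In a bulk sample of sorted cells, fewer cells of a type and less RNA per cell cannot be told apart.

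A group of 4 paralogs with little RNA elsewhere stood out in EE. Vha68-1, which encodes a form of the catalytic A subunit, had 53.7, 65.9 and 46.0 RPKM in EE, against 6.66, 5.31, 5.95, 7.82 and 6.86 RPKM in progenitors. In EC it had 1.64, 0.374 and 1.75 RPKM. Every EE library was above every progenitor library, and every progenitor library was above every EC library. Vha68-1 was higher in EE than in progenitors by a log2 fold change of 2.90 ± 0.18 (SE, adjusted p = 1.9e-06) and higher than in EC by 4.69 ± 0.33 (SE, adjusted p = 1.76e-05). The broad A subunit gene Vha68-2 did not follow it. Vha68-2 had 61.5, 109 and 109 RPKM in EE and 161, 133 and 146 RPKM in EC, against 129, 157, 95.2, 89.9 and 101 RPKM in progenitors. Its log2 fold change in EE was -0.31 ± 0.26 (SE) against progenitors and -0.69 ± 0.30 (SE) against EC, with neither called (adjusted p = 0.336 and 0.0814). Vha68-1 thus made up 29.7 to 46.5% of the summed A subunit RPKM in EE and 0.280 to 1.18% in EC, against 3.27 to 7.96% in progenitors.

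VhaM9.7-a (3L, 4262705 to 4263464, plus strand), a form of the e subunit, had the largest change of any member in EE on the log2(RPKM + 1) scale, which understates changes of low genes. It had 106, 151 and 96.4 RPKM in EE and 3.67, 1.25 and 2.44 RPKM in EC, against 10.2, 6.44, 11.0, 5.49 and 3.45 RPKM in progenitors. The EE libraries were far above both groups, whereas EC and progenitors overlapped. The log2 fold change in EE was 3.90 ± 0.33 (SE, adjusted p = 1.12e-05) against progenitors and 5.14 ± 0.33 (SE, adjusted p = 1.41e-05) against EC. The dominant e subunit gene VhaM9.7-b had 425, 519 and 417 RPKM in EE and 199, 340.2 and 338 RPKM in EC, against 334, 490.0, 347, 337 and 295 RPKM in progenitors. For VhaM9.7-b the EE and progenitor libraries overlapped, and its log2 fold change in EE of 0.35 ± 0.19 (SE, adjusted p = 0.153) against progenitors was not called. VhaM9.7-a supplied 17.7 to 21.6% of the summed e subunit RPKM in EE and at most 5.04% in any other library.

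Vha16-4 (2R, 16947658 to 16948224, minus strand), a proteolipid ring gene, was close to background outside EE. It had 6.96, 10.2 and 8.76 RPKM in EE and 0.0657, 0.0679 and 0.119 RPKM in EC, against 0.0655, 0.145, 0.332, 0.523 and 0.0731 RPKM in progenitors. Only the EE libraries reached 1 RPKM. The implied reads were 534 over the EE libraries and 6 over the EC libraries, against 17 over the progenitor libraries. Scaled to depth, EE was higher by a ratio of 36.4 (95% interval 22.5 to 62.9) against progenitors and 89.8 (95% interval 41.0 to 246) against EC, intervals that cover counting error only. Since Vha16-4 passed the filter through EE alone, its test is given without the filter, where the log2 fold change was 2.97 ± 0.20 (SE, adjusted p = 1.82e-05) against progenitors and 3.14 ± 0.22 (SE, adjusted p = 0.000329) against EC. Even so, Vha16-4 was only 1.14 to 1.54% of the summed c subunit RPKM in EE, where Vha16-1 was abundant.

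VhaAC45RP (3R, 30164692 to 30166419, minus strand) encodes a relative of the accessory subunit Ac45. It had 11.2, 14.8 and 16.2 RPKM in EE and 0.825, 0.207 and 0.986 RPKM in EC, against 3.22, 2.17, 3.45, 2.75 and 1.69 RPKM in progenitors. The 3 groups did not overlap, with EE highest and EC lowest. The log2 fold change in EE was 2.05 ± 0.21 (SE, adjusted p = 4.45e-05) against progenitors and, without the filter that it passed through EE alone in this comparison, 3.19 ± 0.27 (SE, adjusted p = 0.000612) against EC. Its share of the summed Ac45 RPKM was 7.01 to 9.10% in EE and 0.292 to 1.40% in EC, against 1.47 to 3.59% in progenitors. The calls for Vha68-1, VhaM9.7-a, Vha16-4 and VhaAC45RP in EE held under every alternative in which each gene was tested. Without an EE replicate, Vha16-4 in both comparisons and VhaAC45RP against EC no longer passed the filter. Those alternatives therefore could not test these calls.

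**Figure D2:**
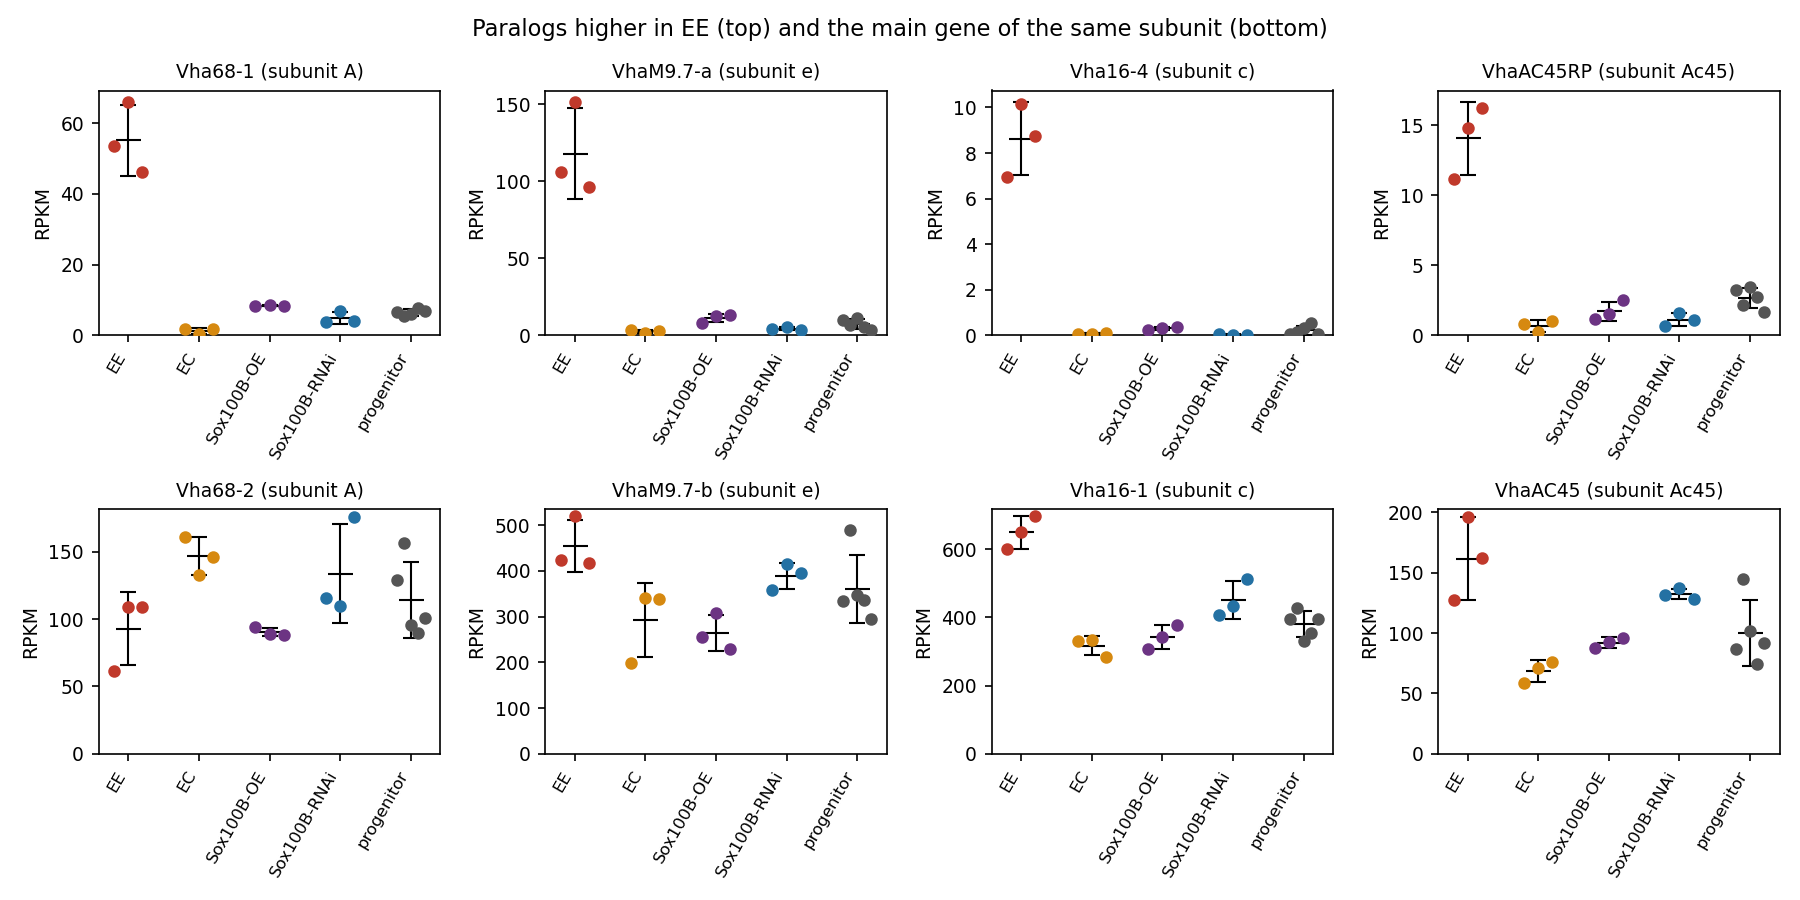
RPKM of 4 paralogs (top row) and of the most abundant gene of the same subunit (bottom row) in EE, EC, Sox100B-OE, Sox100B-RNAi and progenitor libraries, with 1 point per library, the mean as a long bar and the SD as error bars (n = 3, and 5 for progenitors), each vertical axis starting at 0. Vha68-1, VhaM9.7-a, Vha16-4 and VhaAC45RP have all 3 EE libraries above all others, which is not so for Vha68-2, VhaM9.7-b or VhaAC45.

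Other broad genes were also higher in EE, by smaller factors. Vha14-1, the F subunit of the rotor stalk, had 414, 627 and 537 RPKM in EE and 166, 284 and 179 RPKM in EC, against 201, 235, 230.4, 140.4 and 115 RPKM in progenitors. All EE libraries were above all others, and its log2 fold change of 1.54 ± 0.27 (SE, adjusted p = 0.00114) against progenitors was called under every alternative. The proteolipid gene Vha16-1 had 601, 649.5 and 698 RPKM in EE and 331, 334 and 284 RPKM in EC, against 395, 427, 330.1, 353 and 395 RPKM in progenitors. Its EE libraries were above those of both other groups, by a log2 fold change of 0.78 ± 0.15 (SE, adjusted p = 0.00177) against progenitors, a call lost in 6 of 20 alternatives, among them those without EE replicate 2 or EE replicate 3. VhaPPA1-1, the other proteolipid, had 328, 463 and 448 RPKM in EE and 130.2, 97.0 and 171 RPKM in EC, against 208, 275, 247, 140.1 and 139.8 RPKM in progenitors. EE again overlapped neither group, but its call against progenitors (log2 fold change 1.07 ± 0.26, SE, adjusted p = 0.00795) was lost in 13 of 20 alternatives, whereas that against EC (1.65 ± 0.30, SE, adjusted p = 0.00222) was lost in 2 of 16.

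A further 4 genes were called against EC and not against progenitors. The D subunit gene Vha36-1 had 508, 570.5 and 552 RPKM in EE and 169, 256 and 297 RPKM in EC, against 344, 435, 390.1, 216 and 240.1 RPKM in progenitors. EE was above both groups, by a log2 fold change of 1.21 ± 0.29 (SE, adjusted p = 0.00807) against EC and 0.79 ± 0.24 (SE, adjusted p = 0.0223) against progenitors. VhaAC45 had 127, 196 and 162 RPKM in EE and 58.3, 70.7 and 76.2 RPKM in EC, against 86.6, 145, 102, 74.6 and 91.5 RPKM in progenitors. The log2 fold change of VhaAC45 was 1.22 ± 0.27 (SE, adjusted p = 0.00585) against EC, and EE overlapped progenitors, with 0.70 ± 0.23 (SE, adjusted p = 0.031) and, without progenitor replicate 2, a called 0.85 ± 0.20 (SE, adjusted p = 0.00767). Leaving out any other single replicate did not make VhaAC45 called against progenitors. VhaM9.7-c, an e subunit gene, had 28.6, 30.03 and 29.8 RPKM in EE and 5.27, 4.27 and 9.52 RPKM in EC, against 18.0, 19.7, 24.0, 14.0 and 13.8 RPKM in progenitors. Here EC stood lowest, and the log2 fold change of EE against EC was 2.12 ± 0.30 (SE, adjusted p = 0.000575), a call that held under every alternative. All EE libraries were also above all progenitor libraries, with an uncalled log2 fold change of 0.72 ± 0.20 (SE, adjusted p = 0.0143). Without progenitor replicate 3, VhaM9.7-c was also called against progenitors (0.82 ± 0.17, SE, adjusted p = 0.00374), but not on leaving out any other single replicate. Vha100-1, an a subunit gene known from its role in neurons, was higher in EE than in EC by 1.17 ± 0.25 (SE, adjusted p = 0.00488). Its EE libraries were also above all progenitor libraries, with an uncalled 0.41 ± 0.19 (SE, adjusted p = 0.0975). With median-of-ratios scaling, Vha36-1, VhaAC45, Vha100-1, Vha14-1 and Vha16-1 were no longer called against EC. Of 16 alternatives, the call against EC was lost in 11 for Vha36-1, 10 for VhaAC45, 9 for Vha14-1 and 10 for Vha16-1. For Vha100-1 it was lost in 8 of 15. Each of these calls was also lost on leaving out any EE replicate. The difference between a call against EC and the lack of one against progenitors was not itself tested.

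The remaining broad genes did not pass the test in EE. VhaSFD, the regulatory H subunit, had 174, 204 and 199.9 RPKM in EE and 163, 235 and 105 RPKM in EC, against 157, 257, 177, 129 and 150.4 RPKM in progenitors. These libraries overlapped, and the 95% interval of its log2 fold change in EE ran from -0.31 to 0.68 against progenitors. Vha55, the B subunit, had an interval of -0.23 to 1.0 and Vha44 one of -0.80 to 0.19.

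**Figure D3:**
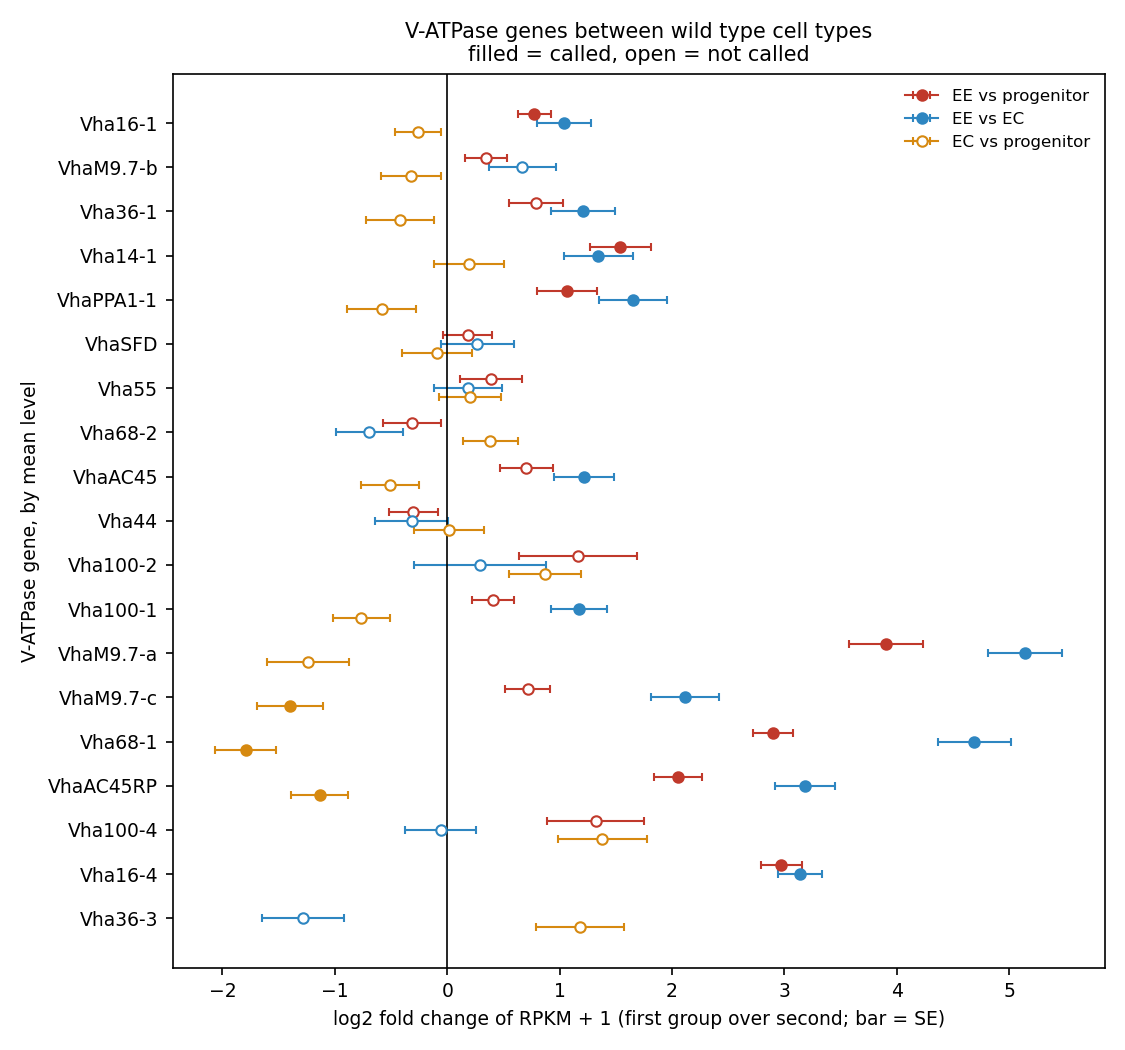
Log2 fold change of RPKM + 1 (horizontal axis) with its SE for each V-ATPase gene tested (rows, ordered by mean level) in EE against progenitor, EE against EC and EC against progenitor. Filled points are called with the filter on low values and open points are not. VhaM9.7-a, Vha68-1, VhaAC45RP and Vha16-4 lie farthest to the right in both EE comparisons, and Vha68-1, VhaM9.7-c and VhaAC45RP are the 3 filled points on the left, in EC against progenitor.

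The EE libraries also differed in their cell type markers. The summed RPKM of 8 enteroendocrine markers (prospero and 7 peptide hormones) was 79221 to 90137 in EE and 735 to 2433 in EC, against 5507 to 8847 in progenitors, and all 8 were called higher in EE against both. NPF alone averaged 32446 RPKM in EE and 559.9 RPKM in EC, against 5387 RPKM in progenitors. In EC against progenitors Tk and NPF were called lower and the other 6 markers were not called. The part of enteroendocrine RNA in the differences of Vha68-1 and VhaAC45RP was not tested. The 9 enterocyte markers summed to 333 to 1031 RPKM in EE and 579 to 2218 RPKM in EC, against 108 to 277 RPKM in progenitors, so that EE did not overlap progenitors. Of these 9, Amy-p was called higher and Myo31DF lower in EE against progenitors, and the part of this list was not tested. The Malpighian tubules join the gut, and their principal cells are rich in V-ATPase. The 4 markers of these cells (Uro, CapaR, salt and tio) were each under 1 RPKM in every EE and progenitor library, and summed to at most 3.11 RPKM in EC. The visceral muscle markers summed to 7.39 to 10.4 RPKM in EE and 2.10 to 11.7 RPKM in EC, against 0.706 to 1.83 RPKM in progenitors. The EE sum was mostly up (upheld), at 6.15, 5.88 and 8.89 RPKM, while the other 4 markers were under 1 RPKM in every EE library and Mhc averaged 0.0704 RPKM in EE, against 0.0614 RPKM in progenitors.

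The libraries labelled EC had fewer called members. Of 18 members tested against progenitors, 0 were higher and 3 were lower (limma; 3 were higher at an unadjusted p under 0.05), where 20% of all features were called, 3.56% as higher and 16.5% as lower. One of the 3, VhaAC45RP, passed the filter through the progenitor libraries alone, which leaves 2 of 17. All EC libraries were above all progenitor libraries for 0 of the 15 broad genes and below them for 3, where 7.34% and 32% of all features had these orders. The median log2 fold change was -0.32 for the broad genes and -0.46 over all features. With median-of-ratios scaling, the median was 0.18 for the broad genes and -0.05 over all features, with 0 higher and 1 lower member, so the sign of the broad genes' median depended on the scaling. The 3 genes called lower were Vha68-1 (log2 fold change -1.79 ± 0.27, SE, adjusted p = 0.00138), VhaM9.7-c (-1.40 ± 0.29, SE, adjusted p = 0.00475) and VhaAC45RP (-1.14 ± 0.27, SE, adjusted p = 0.0234 without the filter, and so called only with it). Each of these had all 3 EC libraries below all 5 progenitor libraries. Vha68-1 kept its call with median-of-ratios scaling, while VhaM9.7-c and VhaAC45RP lost it. Only Vha68-1 was called without progenitor replicate 1, without progenitor replicate 2, without EC replicate 1 or without EC replicate 2, and without progenitor replicate 4 VhaAC45RP was lost. Of the 9 enterocyte markers, Amy-p, Amy-d, alphaTry and lambdaTry were called higher in EC, whereas Myo31DF was called lower. The 4 progenitor markers were Sox100B, E(spl)m3-HLH, E(spl)malpha-BFM and E(spl)mbeta-HLH. Of these, 0 were called in EC against progenitors, while all 4 were called lower in EE. They summed to 553 to 792 RPKM in EC, against 544 to 1356 RPKM in progenitors. Sox100B averaged 49.9 RPKM in EC, against 120 RPKM in progenitors (log2 fold change -1.16 ± 0.36, SE, adjusted p = 0.0253).

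The low paralogs Vha36-3 and Vha100-4 were at 1 RPKM or more in every EC library. Vha36-3, a D subunit gene on the X chromosome (2579091 to 2580560, minus strand), had 5.21, 2.08 and 1.0 RPKM in EC and 0.309, 0.274 and 0.595 RPKM in EE, against 0.172, 0.159, 0.116, 1.55 and 0.865 RPKM in progenitors. EC overlapped progenitors, and the log2 fold change of 1.18 ± 0.39 (SE, adjusted p = 0.0323) was not called. Vha100-4, an a subunit gene, had 5.92, 7.20 and 5.06 RPKM in EC and 8.17, 3.39 and 6.54 RPKM in EE, against 0.749, 1.92, 5.56, 0.843 and 1.28 RPKM in progenitors. Progenitor replicate 3 lay inside the range of the other groups. With that library, Vha100-4 was not called in EC (1.38 ± 0.40, SE, adjusted p = 0.0191) or in EE (1.32 ± 0.43, SE, adjusted p = 0.0285). Without it, the values were 1.70 ± 0.25 (SE, adjusted p = 0.0018) in EC and 1.64 ± 0.29 (SE, adjusted p = 0.0015) in EE, and both were called. Vha100-4 shares 47 exonic bases with cona, a gene on the opposite strand, and the strand setting of the counting is not given in the sources used here.

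The a subunit carries the proton path and, in yeast and mammals, its isoforms direct the pump to different membranes. In these libraries 2 of its genes, Vha100-1 and Vha100-2, changed places between the Sox100B groups. Vha100-1 (3R, 29131193 to 29137980, plus strand) had 73.8, 58.2 and 61.9 RPKM in the libraries labelled Sox100B-OE, against 11.9, 17.5 and 16.2 RPKM in Sox100B-RNAi. EE had 25.8, 27.0 and 26.8 RPKM, EC had 12.2, 8.63 and 13.4 RPKM, and progenitors had 19.0, 14.7, 24.0, 24.2 and 18.6 RPKM. The Sox100B-OE libraries were above every other library of the series. The log2 fold change of Vha100-1 was 2.03 ± 0.22 (SE, adjusted p = 0.000248) against Sox100B-RNAi, which is of the same processing batch, and 1.65 ± 0.19 (SE, adjusted p = 7.71e-05) against progenitors. Vha100-1 overlaps the opposite-strand gene Alg13 by 11 of its 3289 exonic bases. When all genes with such overlap were left out it could not be tested, and in the other alternatives both calls held.

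Vha100-2 moved the other way. It had 8.90, 9.99 and 12.1 RPKM in the libraries labelled Sox100B-OE, against 37.2, 27.8 and 37.7 RPKM in Sox100B-RNAi, and 19.9, 29.0, 16.6, 13.9 and 10.7 RPKM in progenitors. All Sox100B-OE libraries were below all Sox100B-RNAi libraries, with progenitors between the groups and overlapping both. The log2 fold change was -1.63 ± 0.21 (SE, adjusted p = 0.000719) for Sox100B-OE against Sox100B-RNAi. The call was lost in 1 of 16 alternatives, the fit of all 17 libraries (adjusted p = 0.0159), which also used the EE, EC and progenitor libraries. The cause of this loss was not tested. Against progenitors Vha100-2 was not called in Sox100B-OE (-0.68 ± 0.29, SE, adjusted p = 0.0812) or in Sox100B-RNAi (0.95 ± 0.30, SE, adjusted p = 0.0309). Without progenitor replicate 2 the Sox100B-RNAi difference was 1.13 ± 0.25 (SE, adjusted p = 0.00667) and was called. No other single replicate gave this call when left out. In EE, Vha100-2 had 13.0, 59.9 and 76.4 RPKM, and replicate 1 stood apart. The log2 fold change of EE against progenitors was 1.16 ± 0.53 (SE, adjusted p = 0.0917) with that library and 1.93 ± 0.34 (SE, adjusted p = 0.00293) without it. Vha100-2 was not called in EE on leaving out any other single replicate.

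As shares of the summed a subunit RPKM, Vha100-1 made up 73.1 to 86.1% in Sox100B-OE and 22.0 to 32.1% in Sox100B-RNAi, against 31.9 to 62.1% in progenitors. Vha100-2 made up 10.4 to 14.3% in Sox100B-OE and 51.1 to 68.6% in Sox100B-RNAi, against 35.0 to 63.2% in progenitors. Vha100-2 was the larger share in all EC libraries, where it made up 56.4 to 68.1% and Vha100-1 made up 17.1 to 31.0%. The leading gene thus differed between libraries of the EE and progenitor groups and was uniform within each of the other 3 groups. These shares do not depend on how a library was scaled.

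**Figure D4:**
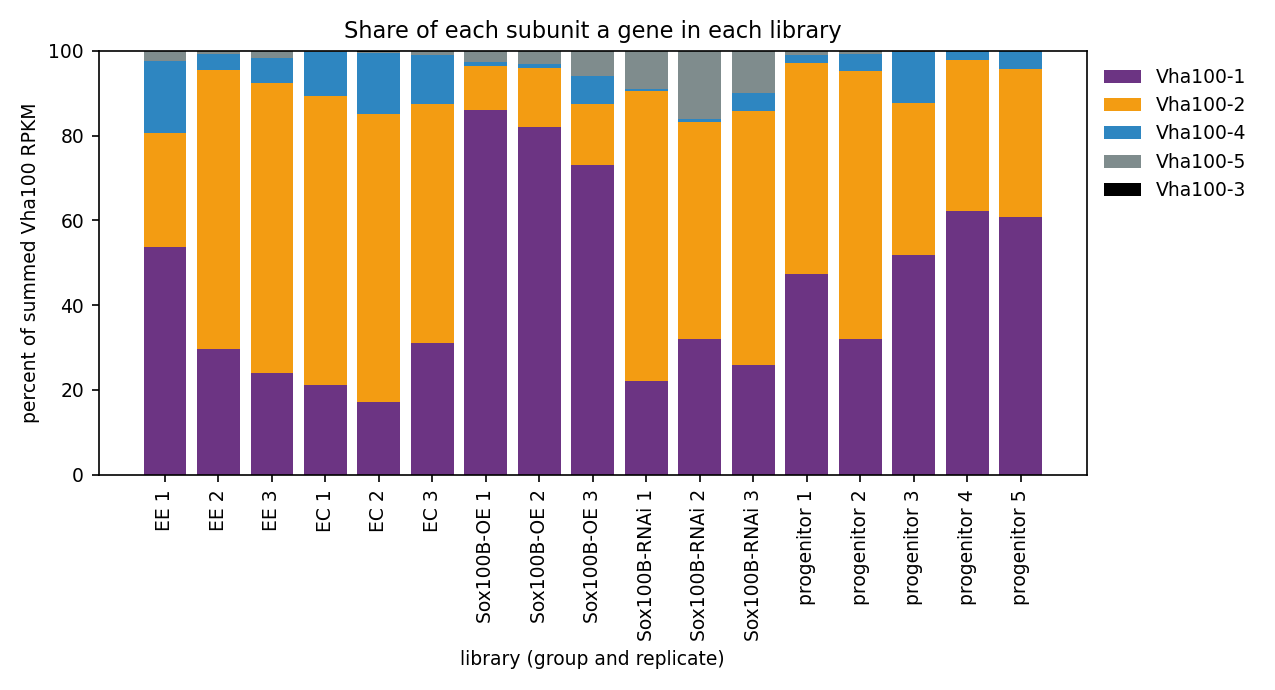
Share of the summed RPKM of the 5 a subunit genes (vertical axis, percent, stacked to 100) in each library, grouped as EE, EC, Sox100B-OE, Sox100B-RNAi and progenitor. Vha100-1 makes up 73.1 to 86.1% of each Sox100B-OE bar, while Vha100-2 makes up 51.1 to 68.6% of each Sox100B-RNAi bar.

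Between Sox100B-OE and Sox100B-RNAi, 2 of the 18 members tested were higher and 1 was lower, where 16% of all features were called, 10.5% as higher and 5.56% as lower. The median log2 fold change was -0.39 for the broad genes and -0.04 over all features. Of the 15 broad genes, 8 had every Sox100B-OE library below every Sox100B-RNAi library and 3 had the reverse order, where 21.9% of all tested features showed the lower and 23.6% the higher pattern. The summed RPKM of the broad genes was 1657 to 1839 in Sox100B-OE, against 2106 to 2657 in Sox100B-RNAi. Among the 8 genes, VhaAC45 had 87.5, 92.4 and 96.2 RPKM in Sox100B-OE, against 132, 137 and 129 RPKM in Sox100B-RNAi. Its groups did not overlap, but the log2 fold change of -0.52 ± 0.18 (SE, adjusted p = 0.0577) was not called. VhaSFD showed the largest uncalled difference of the 8, with 142, 97.3 and 82.6 RPKM in Sox100B-OE, against 241, 145 and 201 RPKM in Sox100B-RNAi (-0.87 ± 0.28, SE, adjusted p = 0.0442).

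The third called member of this comparison was VhaM9.7-a, with 8.17, 12.7 and 13.1 RPKM in Sox100B-OE, against 3.98, 5.25 and 3.35 RPKM in Sox100B-RNAi. Its groups did not overlap, and its log2 fold change was 1.24 ± 0.24 (SE, adjusted p = 0.00549), a call lost in 6 of 16 alternatives, among them those without Sox100B-OE replicate 2, Sox100B-OE replicate 3, Sox100B-RNAi replicate 1 or Sox100B-RNAi replicate 3. Vha68-1, the other broad EE paralog, had 8.17, 8.51 and 8.34 RPKM in Sox100B-OE, against 3.75, 6.91 and 4.09 RPKM in Sox100B-RNAi. These groups did not overlap either, and the log2 fold change of Vha68-1, 0.70 ± 0.23 (SE, adjusted p = 0.0513), was not called, although it was without Sox100B-RNAi replicate 2 (0.93 ± 0.19, SE, adjusted p = 0.00965). Vha68-1 stayed uncalled on leaving out any other single replicate. Beside these values, the 8 enteroendocrine markers summed to 8036 to 13514 RPKM in Sox100B-OE, against 2434 to 4859 RPKM in Sox100B-RNAi. Of these markers, Tk and NPF were called higher in Sox100B-OE and AstA, CCHa1 and CCHa2 lower. The 9 enterocyte markers summed to 344 to 475 RPKM in Sox100B-OE, against 105 to 267 RPKM in Sox100B-RNAi, and 1 of them, Myo31DF, was called higher. The part of enteroendocrine or enterocyte RNA in the difference of VhaM9.7-a was not tested.

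Against progenitors, few members were called in either Sox100B group. In Sox100B-OE, 3 of 19 members tested were higher and 0 were lower (limma; 3 were lower at an unadjusted p under 0.05), where 33.7% of all features were called, 28.9% as higher and 4.83% as lower. Groups did not overlap for 2 broad genes that were higher and 0 that were lower, where 36% and 10.9% of all features had these orders. In Sox100B-RNAi, 2 of 19 were higher and 0 were lower (limma; 1, VhaAC45RP, was lower at an unadjusted p under 0.05), where 25.3% of all features were called, 23% as higher and 2.26% as lower. Groups did not overlap for 0 broad genes in either direction, where 29.1% of all features had the higher and 6.21% the lower order. In both comparisons VhaPPA1-2 and Vha100-5 passed the filter through the Sox100B libraries alone, and of the other 17 members 1 was called in Sox100B-OE and 0 in Sox100B-RNAi. VhaAC45RP had 0.645, 1.56 and 1.12 RPKM in Sox100B-RNAi, below all progenitor libraries, and was called without progenitor replicate 5 (-0.90 ± 0.21, SE, adjusted p = 0.00943) but not with it (-0.79 ± 0.22, SE, adjusted p = 0.0181). Leaving out any other single replicate did not give this call. Both comparisons share the progenitor libraries. The median log2 fold change of the broad genes was -0.16 in Sox100B-OE and 0.18 in Sox100B-RNAi, with 0.26 and 0.20 over all features. With median-of-ratios scaling the median of the broad genes was -0.47 in Sox100B-OE and -0.03 in Sox100B-RNAi. With quantile normalization, which moved the medians over all features to -0.36 and -0.37, 2 members were higher and 3 lower in each comparison. Leaving out any Sox100B-OE replicate left 1 member called in Sox100B-OE, and leaving out any Sox100B-RNAi replicate left 0 called in Sox100B-RNAi, since VhaPPA1-2 and Vha100-5 then no longer passed the filter of 3 libraries. Vha100-1 was the 1 broad gene called in Sox100B-OE and 0 broad genes were called in Sox100B-RNAi, where 1 broad gene, Vha100-2, had an unadjusted p under 0.05. The highest 6 genes by mean level were not called in any Sox100B comparison.

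The other members called against progenitors were VhaPPA1-2 and Vha100-5, both low in the wild type libraries. VhaPPA1-2, a proteolipid gene, had 4.87, 9.68 and 6.76 RPKM in Sox100B-OE and 5.36, 4.68 and 8.15 RPKM in Sox100B-RNAi, against 0.276, 0.429, 0.224, 0.607 and 0.309 RPKM in progenitors. Both Sox100B groups were above every wild type library, and without the filter, which it passed through the Sox100B libraries alone, the log2 fold change was 2.53 ± 0.21 (SE, adjusted p = 1.73e-05) in Sox100B-OE and 2.34 ± 0.20 (SE, adjusted p = 3.39e-05) in Sox100B-RNAi. Vha100-5, an a subunit gene, had 2.20, 2.29 and 5.11 RPKM in Sox100B-OE and 4.89, 8.82 and 6.20 RPKM in Sox100B-RNAi, against 0.420, 0.325, 0.0903, 0.0254 and 0 RPKM in progenitors. In EE, Vha100-5 had 1.18, 0.739 and 1.89 RPKM, above every progenitor library, and did not pass the filter in that comparison. Likewise without the filter, the log2 fold change of Vha100-5 was 1.79 ± 0.24 (SE, adjusted p = 0.000424) in Sox100B-OE and 2.69 ± 0.22 (SE, adjusted p = 2.09e-05) in Sox100B-RNAi. VhaPPA1-2 was thus high in both Sox100B groups and did not differ beyond the spread between them (0.19 ± 0.28, SE, 95% interval -0.45 to 0.82). Vha100-5 was also uncalled between them (-0.90 ± 0.30, SE, adjusted p = 0.0547).

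Both genes share exonic bases with a gene on the opposite strand. VhaPPA1-2 shares 12 of 672 bases with CG3817, and Vha100-5 shares 527 of 2918 bases with asRNA:CR44144. These 2 and Vha100-1 were the members called against progenitors, so leaving out all genes that share exonic bases removed them from the test. As with every comparison across the batches, treatment and batch cannot be told apart for these 2 genes. The implied reads of VhaPPA1-2 were 273 over the Sox100B-OE libraries and 333 over the Sox100B-RNAi libraries, against 32 over the progenitor libraries.

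**Figure D5:**
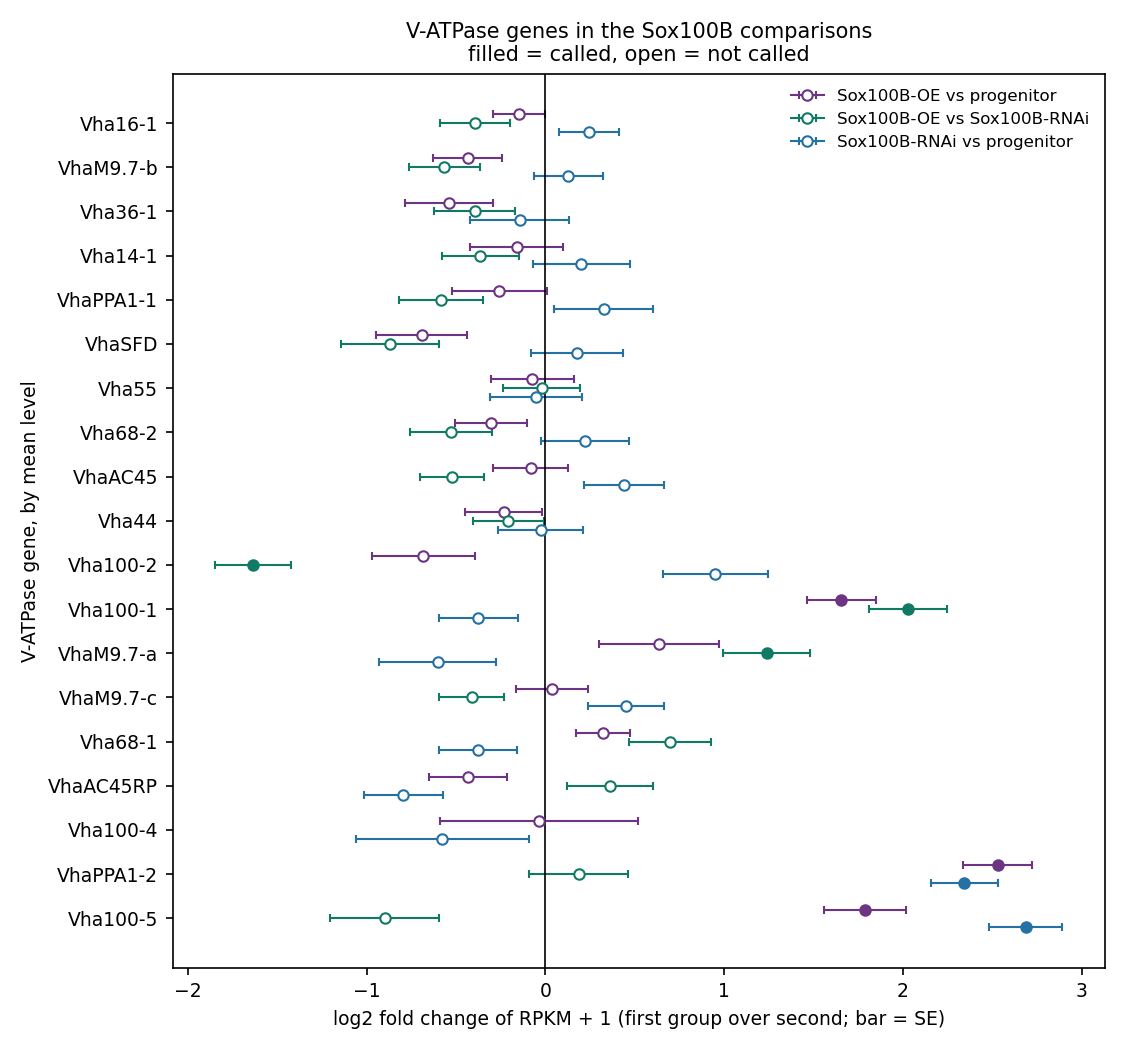
Log2 fold change of RPKM + 1 (horizontal axis) with its SE for each V-ATPase gene tested (rows, ordered by mean level) in Sox100B-OE against progenitor, Sox100B-OE against Sox100B-RNAi and Sox100B-RNAi against progenitor. Filled points are called and open points are not. Vha100-1 is called to the right in both Sox100B-OE comparisons, Vha100-2 to the left against Sox100B-RNAi, and VhaPPA1-2 and Vha100-5 to the right in both comparisons with progenitors.

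Genes that work with the pump were read from a list of 28, of which 27 had a row. In EE against progenitors, 8 of 21 tested were called, all as higher, where 20.1% of all features were called higher and 34.6% in either direction. These were the lysosomal genes Lamp1, cathD, CtsB, Npc2a and Sap-r, the vesicular transporter prt, the proton exchanger Nhe1 and the carbonic anhydrase CAH2, which supplies protons from carbon dioxide. The portabella gene prt averaged 73.2 ± 10.2 RPKM in EE, against 7.45 ± 1.36 RPKM in progenitors (SD, n = 3 and 5; log2 fold change 3.14 ± 0.18, SE). The other 3 vesicular transporters with a row (VGlut, VGAT and Vmat) were under 1 RPKM in every EE library. CAH2 averaged 46.3 ± 6.28 RPKM in EE, against 1.15 ± 0.956 RPKM in progenitors (SD, n = 3 and 5; log2 fold change 4.56 ± 0.33, SE). The copper cell factor lab (labial) was not called in EE, and averaged 5.49 ± 0.681 RPKM in Sox100B-OE, against 2.18 ± 0.887 RPKM in progenitors (SD, n = 3 and 5), where it was called higher (log2 fold change 1.06 ± 0.22, SE, adjusted p = 0.00381). In Sox100B-RNAi lab had 4.82, 2.05 and 6.87 RPKM, which overlapped its 5.79, 4.71 and 5.96 RPKM in Sox100B-OE. Batch and treatment cannot be told apart for lab against progenitors. None of the 4 assembly and regulatory genes (Rbcn-3A, Rbcn-3B, CG5969 and Mitf) was called in any of the 6 comparisons.

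Against EC, EE had 10 of 21 related genes higher and 0 lower. Over all features, 26.5% were called higher and 6.22% lower in this comparison. Both EE comparisons use the same EE libraries. The other comparisons had fewer called genes of the list. In EC against progenitors 2 of 21 were higher (CtsB and Npc2a) and 4 were lower (Lamp1, ClC-b, prt and Nhe3), where 3.56% of all features were called as higher and 16.5% as lower. In Sox100B-OE against Sox100B-RNAi 4 of 21 were higher (Npc1a, Npc2a, prt and Nha2) and 1 was lower (CAH2), where 10.5% of all features were called higher and 5.56% lower. Across the batches, 5 of 22 were higher and 0 were lower in Sox100B-OE against progenitors (CtsL1, Npc2a, Sap-r, lab and CAH1), where 28.9% of all features were called higher. In Sox100B-RNAi against progenitors 2 of 22 were higher (CtsB and CAH1) and 3 were lower (Npc2a, prt and Nha2), where 23% and 2.26% of all features were called. The carbonic anhydrase gene CAH1 was below 1 RPKM in all progenitor libraries, passed the filter through the Sox100B libraries alone and shares 1116 exonic bases with other genes. The cholesterol carrier Npc2a averaged 399.6 ± 142 RPKM in Sox100B-OE, against 18.5 ± 4.96 RPKM in Sox100B-RNAi (SD, n = 3 each; log2 fold change 4.33 ± 0.30, SE), and prt averaged 10.7 ± 0.550 RPKM in Sox100B-OE, against 1.65 ± 0.618 RPKM in Sox100B-RNAi (SD, n = 3 each; log2 fold change 2.16 ± 0.21, SE).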

How the data were processed

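RNA of GFP-labelled midgut cells was sequenced in 17 libraries (5 progenitor and 3 each of EE, EC, Sox100B-OE and Sox100B-RNAi, grouped by their titles). The authors deposited 1 table of RPKM values per gene, and per the labels' processing notes STAR, featureCounts 1.6.3, DESeq2 and BDGP6 were used, with the read total behind the RPKM, the strand setting and the treatment of reads fitting several genes not given in the sources used here. Of 17490 features, 1 with missing values was dropped. The product of RPKM and exonic length came in steps of 1 read (98.4 to 98.9% of low values within 0.05 of a whole number), and the step gave the implied read totals, used here for depth and for read ratios only. Amplified reads without molecular identifiers are not independent molecules.

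Groups were compared on log2(RPKM + 1) with limma 3.58.1 in R 4.3.3 (lmFit, eBayes with trend, 2-sided, Benjamini-Hochberg adjustment over all features tested), each fit using the libraries of its groups and features that reached an RPKM of 1 in 3 or more of these libraries. The limits of 0.01 on the adjusted p and 0.5 on the log2 fold change come from the methods of the paper read beside these data, a midgut study that describes no Sox100B libraries and whose link to these samples was not settled. The procedure was tested on simulated data.

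Values per library are given for the 6 largest called changes per wild type comparison, the 6 highest means, called members of the Sox100B comparisons without shared exonic bases (at most 6 each), and, per subunit with several genes, the highest gene and any other at 1 RPKM or more throughout a group. Members named beyond this were chosen after their values were seen. Members, lists and thresholds were chosen with earlier results of these data known. The planned search of promoters was not run.

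Alternatives were a pseudocount of 0.1, no filter or one at 3.5, other scalings, nuclear genes without shared bases, array weights, other thresholds, a replicate block, 1 fit of all libraries, and leaving out replicates.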

Additional observations from a re-analysis of the deposited data

Results flagged for a closer look

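Among the 17 members with enough RNA in progenitors to be checked, 2 had a progenitor library far from the other 4, where chance sets a library apart in about 1 of 20 groups. VhaM9.7-b, the main e subunit gene, had 490.0 RPKM in progenitor replicate 2, with the nearest library at 347 RPKM, a gap of 0.734 of the group's whole range. Vha100-4, an a subunit gene, had 5.56 RPKM in progenitor replicate 3, with the nearest library at 1.92 RPKM, a gap of 0.757 of the range. Without progenitor replicate 2, the log2 fold change of VhaM9.7-b in EE was 0.46 ± 0.16 (SE, adjusted p = 0.0387, limma), which was not called, as with it. Without progenitor replicate 3, Vha100-4 was called higher in EE and in EC.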

How the results depend on the processing

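The 29 calls of members were recomputed under 493 alternatives in all, of which 396 kept direction and call, 97 kept direction and lost the call, and 0 changed direction. A total of 15 calls held in every alternative in which the gene was tested. These include calls of genes that passed the filter through 1 group alone, namely Vha16-4, VhaPPA1-2, Vha100-5 in Sox100B-RNAi and VhaAC45RP in EE against EC. Alternatives without a replicate of that group could not test them. The count of members called in EE against progenitors was 7. It was 5 each for quantile normalization, scaling to nuclear reads, and nuclear genes without shared exonic bases. It was 6 for median-of-ratios scaling and with progenitor replicates 1 to 3 alone. It was 11 both at an adjusted p below 0.05 and with progenitor replicates 4 and 5 alone. In EC against progenitors it was 3, with 1 each for no filter, median-of-ratios scaling and quantile normalization, 6 each for 1 fit of all 17 libraries and array weights, 0 for the replicate block and 8 at an adjusted p below 0.05. In EE against EC it was 11, with 7 each for no filter, quantile normalization and scaling to nuclear reads, and 6 each for median-of-ratios scaling and for nuclear genes without shared exonic bases. In Sox100B-RNAi against progenitors it was 2, with 5 for quantile normalization, 0 for genes without shared bases (which leaves out the called genes) and 4 at an adjusted p below 0.05. In Sox100B-OE against progenitors it was 3, with 5 for quantile normalization, 0 for genes without shared bases (likewise) and 5 with progenitor replicates 1 to 3 alone. In Sox100B-OE against Sox100B-RNAi it was 3, and 1 with 1 fit of all 17 libraries. Leaving out 1 replicate gave 4 to 9, 1 to 4, 3 to 10, 0 to 3, 1 to 3 and 2 to 4 members called in these comparisons, in the same order, in part because fewer members passed the filter. In the other cases the cause was not tested.

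Whether the replicate numbers pair the libraries could not be settled, since each comparison has few such pairs. Correlations of same-numbered libraries' deviations ran from -0.14 to 0.36 and were over 0.1 for every number in no comparison. In Sox100B-OE against Sox100B-RNAi they were 0.36, 0.04 and 0.18, all positive. There, 1662 of 8848 features were called with the replicate block, against 1419 without it. With the replicate block the counts were 5, 0, 8, 2, 3 and 3. Progenitor replicates 4 and 5 had lower levels of several broad genes than replicates 1 to 3, and no label marks this split. Depth limits genes under 1 RPKM, where 3 reads on 1000 bases correspond to 0.0505 to 0.173 RPKM.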
